A study of Rattus norvegicus with 12 samples.

Results

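Mitochondrial ribosomal protein genes were taken as every gene whose annotated symbol begins with Mrpl (large subunit) or Mrps (small subunit), upper or lower case, on a probe set annotated to 1 symbol alone. The rule found 100 of 31042 probe sets and 76 of 14217 genes, of which 49 belonged to the large and 27 to the small subunit. Each gene was represented by its probe set of highest mean over all arrays. Messenger RNA of rat heart had been measured on 12 Affymetrix 3' arrays, 1 for each heart, with 6 failing and 6 control hearts labelled as biological replicates. The series deals with spontaneously hypertensive rats (SHR), an inbred line whose blood pressure is high, as enlarged hearts pass into systolic failure. The sources used here give no strain for the controls, no age and no part of the heart. Groups that received captopril are named in the protocol and are not analysed here.

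The mitochondrial ribosome makes the few proteins encoded by mitochondrial DNA, all of them subunits of the respiratory chain and of ATP synthase. Its RNA comes from mitochondrial DNA, whereas every one of its proteins is encoded in the nucleus, made in the cytosol and imported. Some of these proteins have counterparts in the bacterial ribosome, and the others are found only in mitochondria. Heart muscle is rich in mitochondria, and in people inherited defects of several of these proteins cause cardiomyopathy.

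The probe set values were linear intensities that had been scaled alike, with a trimmed mean between 500.19 and 500.23 on every array and a median between 120.6 and 143.9. They were compared on a log2 scale, as failing minus control. A scaling of this kind cannot show a shift shared by most genes. Spearman correlations between arrays were 0.915 to 0.945, and 0 pairs of arrays held identical values. The number of arrays limits the precision. In bulk tissue, fewer cells of a type and less RNA per cell cannot be told apart.

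Transcripts of the mitochondrial ribosome were lower in failing than in control hearts across both subunits. Of the 76 genes, 74 had a lower mean in failing hearts, against 53.99% of all genes. The median difference, failing minus control, was -0.38 (-23.3%) over the 49 large subunit genes and -0.32 (-20.0%) over the 27 small subunit genes, beside -0.03 over all genes. The 2 members with a higher mean were Mrps26 and Mrps6. After quantile normalization, and after centring each array on its median, 74 of 76 were again lower.

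All 76 members lay among the 7109 brighter genes, those with a mean no lower than the median gene (8.21 on the log2 scale, an intensity of 297), and the tests are given within these. With limma and Benjamini-Hochberg adjustment at 0.05, 21 of the 76 members (27.6%) fell and 0 rose in failing hearts. The background was 4.73% of brighter genes called lower and 5.4% called higher. The count was 10 after median centring and 52 with array weights, beside 2.5% and 12.1% of brighter genes called lower. The calls took 12 of 49 large subunit genes (24.5%) and 9 of 27 small subunit genes (33.3%), and whether these shares differ was not tested. At an unadjusted p under 0.05, 55 members were lower and 0 higher, beside 16.4% of brighter genes lower at that level. When p-values were adjusted over all 14217 genes, limma called 0 members and 0 genes in either direction (0%), and the lowest adjusted p of a member was 0.0863.

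**Figure D1:**
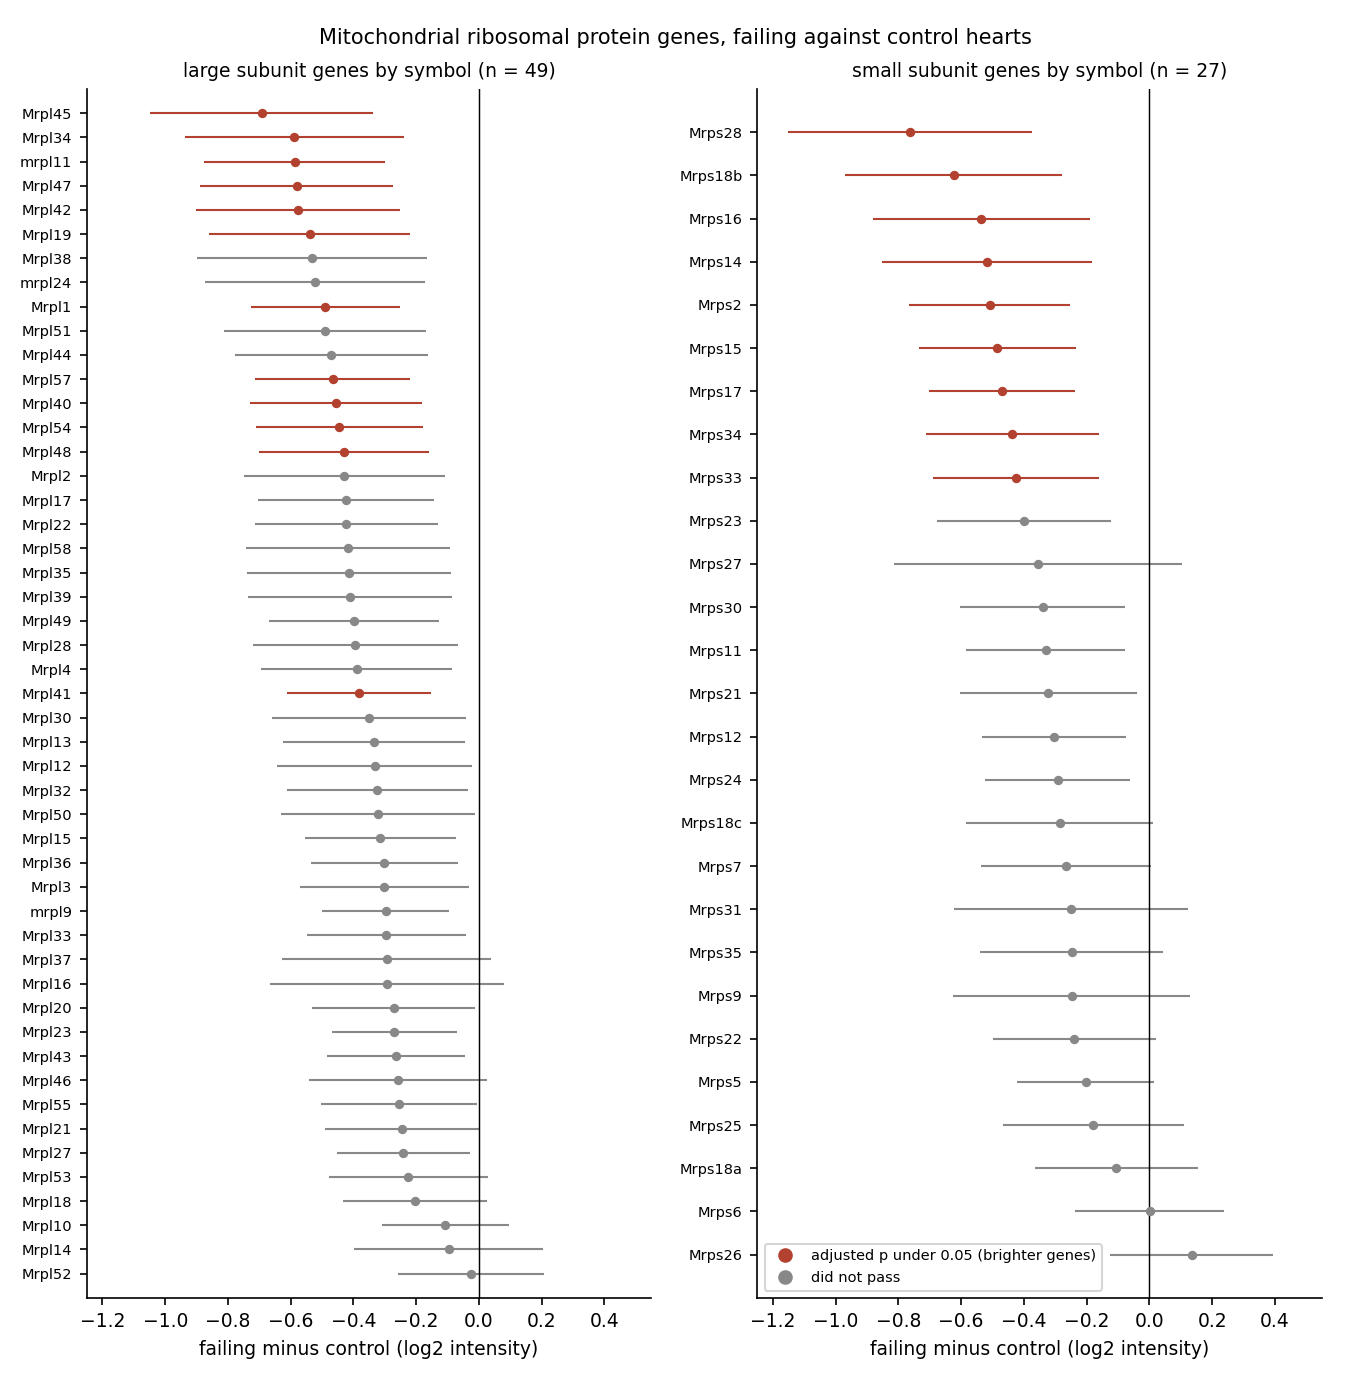
Difference of each of the 76 members between failing and control hearts (x axis, log2 intensity, failing minus control), with the 95% interval from the limma fit to the brighter genes. Large subunit genes are on the left and small subunit genes on the right, and coloured points mark the 12 and 9 genes called lower. All points on the left and all but Mrps6 and Mrps26 on the right lie below 0.

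The count of calls depended on single hearts. It was 0 without failing replicate 3 and 0 without control replicate 1, and 56 without control replicate 4. Without failing replicate 5 it was 39, without failing replicate 2 it was 16, and without failing replicates 1, 4 and 6 it was 10, 3 and 4. Without control replicates 2, 3, 5 and 6 it was 5, 4, 12 and 1. The background moved with it, being 0.731% and 0.661% of brighter genes without failing replicate 3 and control replicate 1, against 13.6% without control replicate 4. Without failing replicates 1, 2, 4, 5 and 6 the background was 2.81%, 3.77%, 1.28%, 8.5% and 1.29%. Without control replicates 2, 3, 5 and 6 the background was 1.32%, 1.48%, 2.18% and 0.858%. The medians moved less. Over the 12 omissions they ran from -0.46 to -0.31 in the large and from -0.38 to -0.26 in the small subunit, with 73 to 75 of 76 members lower in each.

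**Figure D2:**
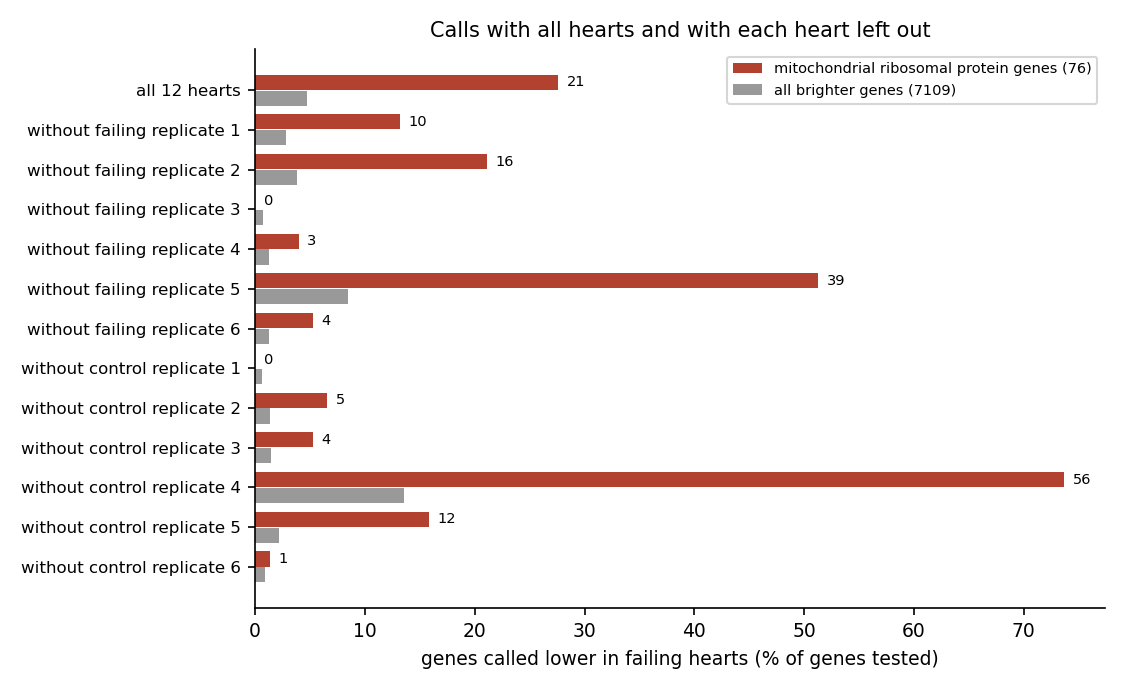
Share of genes called lower in failing hearts (x axis, % of genes tested, limma, adjusted p under 0.05), with all 12 hearts and with each heart left out. Coloured bars are the 76 members, with the number called printed beside them, and grey bars are all 7109 brighter genes. The members' bar is longest without control replicate 4 (56 genes) and has no length without failing replicate 3 or control replicate 1.

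The level of the whole set was summarised in each heart as the mean over members of log2 intensities centred on each gene's mean over the 12 hearts. For the large subunit this mean was -0.25, -0.10, -0.44, -0.16, 0.09 and -0.25 in failing replicates 1 to 6, against 0.39, 0.24, 0.27, -0.18, 0.10 and 0.28 in control replicates 1 to 6. For the small subunit it was -0.17, -0.11, -0.42, -0.12, 0.03 and -0.22 in failing hearts, against 0.41, 0.19, 0.27, -0.19, 0.07 and 0.25 in control hearts. Control replicate 4 lay among the failing hearts and failing replicate 5 close to control replicate 5, so the groups overlapped in both subunits. The labels were followed for every heart, and whether these 2 were exchanged cannot be told from these data. The group means were -0.19 ± 0.18 in failing and 0.19 ± 0.20 in control hearts for the large subunit, and -0.17 ± 0.15 in failing and 0.17 ± 0.21 in control hearts for the small subunit (SD, n = 6 each).

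These hearts stood apart gene by gene too. Of the 76 members, 63, 59, 74, 66, 19 and 72 lay below the midpoint of the group means in failing replicates 1 to 6, against 1, 5, 4, 67, 19 and 6 in control replicates 1 to 6. Failing replicate 3 was the lowest heart and control replicate 1 the highest. Leaving out both control replicate 4 and failing replicate 5, a choice made after seeing the data, gave 64 members called lower among the brighter genes, beside 16.9% of those genes, and medians of -0.50 (large) and -0.45 (small). As these hearts were chosen by their own values, that count describes the other 10 hearts and is not support for the difference.

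**Figure D3:**
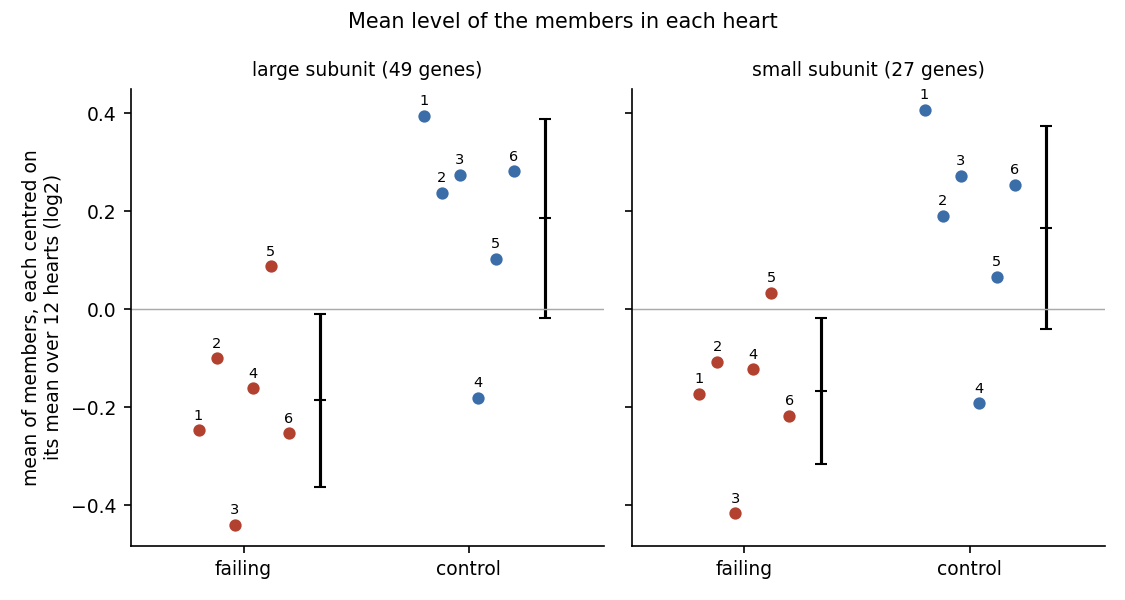
Mean level of the large (left, 49 genes) and small (right, 27 genes) subunit members in each heart (y axis, log2 intensity centred on each gene's mean over 12 hearts). Points carry the replicate number, and bars show the mean ± SD of 6 failing and 6 control hearts. Control replicate 4 lies at the level of the failing hearts and failing replicate 5 is the highest failing heart in both panels.

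In the large subunit, the genes of 2 proteins of the region where elongation factors and transfer RNA move through the ribosome were called lower. Mrpl1, the counterpart of the bacterial protein that forms the stalk beside the transfer RNA exit site, had a lowest, median and highest level of 10.27, 10.50 and 10.82 in failing hearts, against 10.70, 11.03 and 11.16 in control hearts (log2 intensity). Control replicate 4 alone overlapped with the failing hearts. Mrpl1 fell by 28.8%, a log2 difference of -0.49 ± 0.11 (SE, n = 6 each, limma adjusted p = 0.0216). For mrpl11, whose bacterial counterpart helps to bind elongation factors, the values were 11.08, 11.14 and 11.71 in failing hearts and 11.45, 11.91 and 12.07 in control hearts. Its highest failing value was that of replicate 5 and its lowest control value that of replicate 4. The difference was -0.59 ± 0.14 (SE, limma adjusted p = 0.0224).

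The brightest probe set of the stalk protein Mrpl12 was not called, and a dimmer one was. Mrpl12, which in human cells also binds the mitochondrial RNA polymerase, averaged 12.69 ± 0.27 in failing and 13.03 ± 0.25 in control hearts (SD, n = 6 each; difference -0.33, limma adjusted p = 0.14). The dimmer probe set of Mrpl12 had a difference of -0.88, with a limma adjusted p of 0.0465 among brighter probe sets and 0.168 over all probe sets. Mrpl10, the base of the stalk, had a difference of -0.11 and did not pass.

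Mrpl45 and Mrpl47, whose proteins lie at the exit of the peptide tunnel, were called lower, and the genes of 4 other proteins there were not. Mrpl45, a mitochondria-specific protein that holds the ribosome to the inner membrane, had values of 10.81, 11.12 and 11.55 in failing hearts against 11.22, 11.91 and 12.16 in control hearts (lowest, median and highest). Failing replicates 2, 4 and 5 lay above control replicate 4, which made the overlap. Mrpl45 fell by 38.1%, the furthest of the large subunit genes (-0.69 ± 0.17, SE; limma adjusted p = 0.0254). Mrpl47, which lies near the tunnel exit as its bacterial counterpart does, ranged from 10.16 to 10.88 in failing hearts (median 10.44) and from 10.77 to 11.34 in control hearts (median 10.97), with a difference of -0.58 (limma adjusted p = 0.0274). Mrpl17, also at the exit and the brightest of the probe sets that stood for large subunit genes, had a difference of -0.42 that did not pass (limma adjusted p = 0.0535). Mrpl22 (-0.42), Mrpl23 (-0.27) and mrpl24 (-0.52) did not pass either, with limma adjusted p-values of 0.0612, 0.0744 and 0.0573.

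Of genes for proteins of the central protuberance, a ridge near the small subunit, Mrpl48 and Mrpl40 were called lower and others were not. Mrpl48 ranged from 9.84 to 10.23 in failing hearts (median 10.18) and from 10.30 to 10.87 in control hearts (median 10.49), so the groups did not overlap. Its difference was -0.43 ± 0.13 (SE, limma adjusted p = 0.0452). Mrpl40 had values of 10.51, 10.85 and 11.17 in failing hearts against 10.87, 11.35 and 11.53 in control hearts, with a difference of -0.46 (limma adjusted p = 0.0392). Mrpl38, the dimmest of the probe sets that stood for large subunit genes, had a difference of -0.53 and a limma adjusted p of 0.0605. Mrpl27 (-0.24), Mrpl46 (-0.26), Mrpl18 (-0.20) and Mrpl52 (-0.03) did not pass, with limma adjusted p-values of 0.122, 0.207, 0.217 and 0.903.

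Mrpl57, a small mitochondria-specific protein, was the other member with separate groups. On its brighter probe set the values were 10.40, 10.80 and 10.96 in failing hearts and 10.97, 11.22 and 11.33 in control hearts. The groups came close without overlapping (difference -0.47, limma adjusted p = 0.0274). Its dimmer probe set had a difference of only -0.15 (limma adjusted p = 0.67 among brighter probe sets). Separate groups were found in 2 of 76 members (2.63%), beside 1.13% of brighter genes with failing hearts lower. The remaining called large subunit genes were Mrpl42 (-0.58), Mrpl41 (-0.38), Mrpl54 (-0.45), Mrpl19 (-0.54) and Mrpl34 (-0.59), with limma adjusted p-values of 0.0329 to 0.0382. Mrpl19 and Mrpl34 have bacterial counterparts, and the others are mitochondria-specific.

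Mrpl44 and Mrpl3, both with variants known in human cardiomyopathy, were not called. Mrpl44, a protein with a ribonuclease fold, averaged 9.75 ± 0.28 in failing and 10.22 ± 0.24 in control hearts, with a difference of -0.47 and a limma adjusted p of 0.0515. Mrpl3, whose bacterial counterpart lies near the site of peptide bond formation, averaged 12.41 ± 0.20 in failing and 12.71 ± 0.24 in control hearts (difference -0.30, limma adjusted p = 0.126). Both were lower in the mean, with overlapping groups.

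In the small subunit the member that moved most was Mrps28, which is assigned to the family of a bacterial protein that contacts messenger RNA. Its values were 9.40, 9.83 and 10.32 in failing hearts, against 9.99, 10.67 and 10.99 in control hearts (lowest, median and highest, log2 intensity). Failing replicates 5 and 2 lay above the lowest control heart, replicate 4. Mrps28 fell by 41.1% (-0.76 ± 0.18, SE, n = 6 each, limma adjusted p = 0.0249).

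Transcripts of several small subunit proteins with bacterial counterparts fell by similar amounts. Mrps17 had values of 11.01, 11.16 and 11.49 in failing hearts and 11.37, 11.74 and 11.83 in control hearts, with failing replicate 5 above control replicate 4 (difference -0.47, limma adjusted p = 0.0231). Mrps2 had values of 9.67, 9.91 and 10.38 in failing hearts and 10.22, 10.46 and 10.59 in control hearts (difference -0.51, adjusted p = 0.0245). Mrps15 had values of 10.78, 11.10 and 11.37 in failing hearts and 11.33, 11.68 and 11.75 in control hearts (difference -0.48, adjusted p = 0.0259). In each of these 3 genes 1 failing heart lay above the lowest control heart, replicate 5 for Mrps17 and Mrps2 and replicate 2 for Mrps15. Mrps14 (-0.52, adjusted p = 0.0494) and Mrps16 (-0.54, adjusted p = 0.0497) passed limma's threshold by the narrowest margins.

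Of the genes of mitochondria-specific small subunit proteins, Mrps33 (-0.43, limma adjusted p = 0.0439) and Mrps34 (-0.44, adjusted p = 0.0458) were called lower. Mrps18b, counted in the same class, was also called lower and is described below. Mrps34 is needed for a stable small subunit, and variants of it cause Leigh syndrome in people. Mrps23, the brightest of the probe sets that stood for small subunit genes, had a difference of -0.40 and did not pass (adjusted p = 0.0612). Mrps22, with variants known in human cardiomyopathy, had a difference of -0.24 (adjusted p = 0.2).

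The genome holds 3 mitochondrial relatives of the bacterial S18 protein, and they differed in size of change. Mrps18b, of the small subunit, had values of 11.25, 11.62 and 12.14 in failing hearts and 11.81, 12.36 and 12.62 in control hearts. It fell by 35.1% (-0.62 ± 0.16, SE, limma adjusted p = 0.032). Mrps18c, the relative at the bacterial site and the dimmest of the probe sets that stood for small subunit genes, had a difference of -0.29 (adjusted p = 0.184). Mrps18a, which sits in the large subunit in spite of its name, averaged 11.01 ± 0.22 in failing and 11.12 ± 0.19 in control hearts (-0.11, adjusted p = 0.578). Differences between these 3 genes were not tested.

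Mrps12, whose bacterial counterpart takes part in decoding, had a difference of -0.30 (limma adjusted p = 0.0806). Mrps30, like Mrps18a a large subunit protein by its place in the mammalian structure, had a difference of -0.34 (adjusted p = 0.0847). With both moved to the large subunit, the median was -0.35 over 51 large subunit genes and remained -0.32 over 25 small subunit genes.

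**Figure D4:**
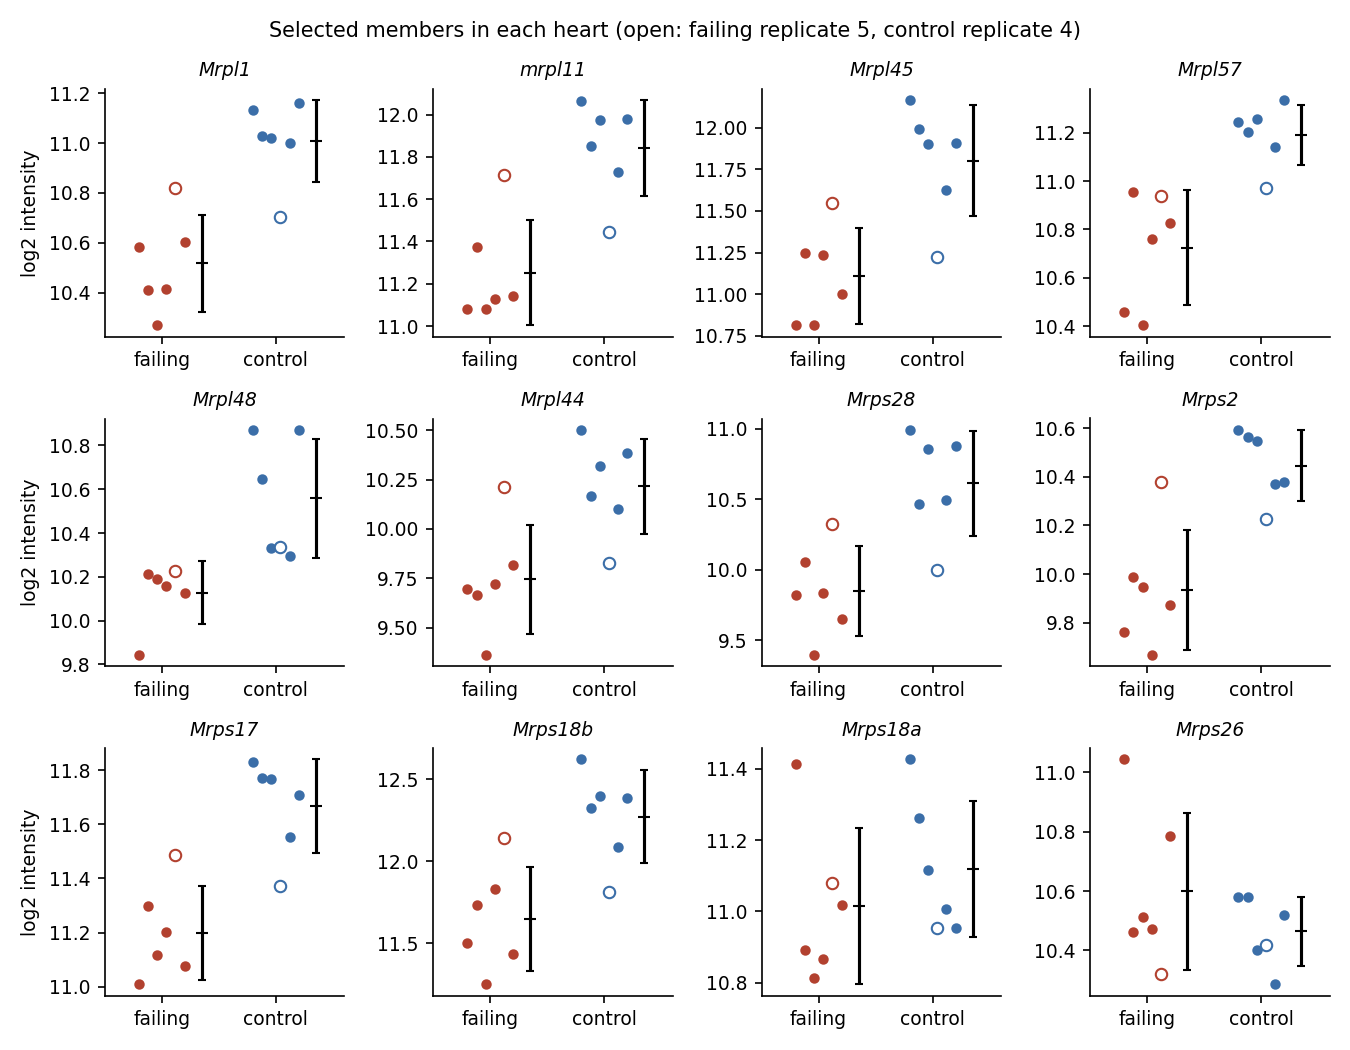
Log2 intensity of 12 members in each heart (y axis, own scale in each panel), with failing hearts on the left and control hearts on the right. Bars show the mean ± SD of 6 hearts, and open points mark failing replicate 5 and control replicate 4. The open failing point lies above the open control point in all panels except Mrpl57, Mrpl48 and Mrps26. In Mrps18a and Mrps26 the groups lie together.

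The 30 large subunit genes with bacterial counterparts had a median difference of -0.33 with 5 called (16.7%). The 19 mitochondria-specific ones had a median of -0.42 with 7 called (36.8%). In the small subunit the 15 genes with counterparts had a median of -0.32 with 6 called (40%). The 12 mitochondria-specific small subunit genes had a median of -0.30 with 3 called (25%). Beside these shares, 4.73% of brighter genes were called lower. Of the relatives of S18, this split counted Mrps18c as a counterpart, and Mrps18a and the called Mrps18b as mitochondria-specific. With the genes assigned in this way, no order of these families held in both subunits, and their differences were not tested.

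A few members stood outside the pattern, and they are named here after their values were seen. Mrps26 averaged 10.60 ± 0.27 in failing and 10.46 ± 0.12 in control hearts, a difference of 0.13 (limma adjusted p = 0.473), with failing replicate 1 the highest heart at 11.04. A dim second probe set of Mrps26 was also higher in the mean. Mrps6 differed by 0.0014 and changed sign without single hearts. Mrpl52 had a difference of -0.03 on its brighter probe set and -0.34 on its dimmer one, and neither passed the test. Mrpl14 had a difference of -0.10.

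Other probe sets of the same genes gave a further view of the transcripts. A single probe set represented 58 genes, and 18 genes had 24 further ones, of which 23 had a lower mean in failing hearts and 1 a higher mean. Over the 100 probe sets 97 were lower, and in 0 genes did the probe sets differ in sign. Among brighter probe sets (at or above the median of all, 6.94), 10 of 95 of the members' were called lower and 0 higher, beside 1.48% of 15521 called lower. For the called genes Mrpl40, Mrpl57, Mrps2, Mrps14 and Mrps15, no further probe set passed limma there. Their differences ran from -0.56 (Mrpl40) to -0.19 (Mrps15) and -0.15 (Mrpl57).

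The members moved together from heart to heart within a group. After each group's mean was removed, the median correlation over the 2850 pairs of members was 0.691 across the 12 hearts, and 93.4% of pairs were above 0, beside a median of 0.0027 and 50.24% of pairs for all brighter genes. The pairs share hearts, arrays and scaling, so these values are a description. The values over pairs were computed with all 12 hearts only, so the part of outlying hearts in them was not tested. The median was 0.718 within the large subunit, 0.635 within the small subunit and 0.676 between them. The mean of the large subunit followed that of the small one with r = 0.983, and with r = 0.951 when control replicate 4 and failing replicate 3, the hearts farthest from the median, were left out. Mrps14 (0.976) and Mrpl35 (0.973) followed the mean of the other members most closely. Mrpl52 (-0.30), Mrps5 (-0.19) and Mrps26 (-0.09) did not follow it.

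Promoter sequence was read for 62 of the 76 members from RefSeq (GRCr8), as 250 bases before to 50 bases after the start of the gene. Motifs of 3 factors known to act on nuclear genes for mitochondrial proteins were searched on both strands. They were CGCATGCG for NRF1, CCGGAAG for the ETS family that includes GABP, and AAGATGGC for YY1. The 4 called members that held any of them are printed 5' to 3' on the gene's strand, with matches in capitals, because they place the motifs on genes that fell. Mrps18b (chr20:2842756-2843055, plus strand) held all 3, Mrpl48 (chr1:164351327-164351626, minus strand) held the ETS and YY1 motifs, Mrpl42 (chr7:32028473-32028772, minus strand) held the YY1 motif, and Mrpl57 (chr15:36086207-36086506, plus strand) held the ETS motif.
Mrps18b: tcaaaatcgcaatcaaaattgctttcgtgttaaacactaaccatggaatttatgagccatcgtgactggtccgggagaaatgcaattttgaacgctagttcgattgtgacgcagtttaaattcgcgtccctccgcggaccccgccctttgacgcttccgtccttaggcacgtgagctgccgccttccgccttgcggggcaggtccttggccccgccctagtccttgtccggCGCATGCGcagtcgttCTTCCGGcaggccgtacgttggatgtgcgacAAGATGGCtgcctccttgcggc
Mrpl48: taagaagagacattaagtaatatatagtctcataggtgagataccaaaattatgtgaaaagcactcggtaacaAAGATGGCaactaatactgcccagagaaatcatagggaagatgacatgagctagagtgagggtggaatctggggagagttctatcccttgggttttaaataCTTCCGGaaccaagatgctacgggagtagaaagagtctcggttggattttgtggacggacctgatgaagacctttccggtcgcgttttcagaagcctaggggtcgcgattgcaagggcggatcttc
Mrpl42: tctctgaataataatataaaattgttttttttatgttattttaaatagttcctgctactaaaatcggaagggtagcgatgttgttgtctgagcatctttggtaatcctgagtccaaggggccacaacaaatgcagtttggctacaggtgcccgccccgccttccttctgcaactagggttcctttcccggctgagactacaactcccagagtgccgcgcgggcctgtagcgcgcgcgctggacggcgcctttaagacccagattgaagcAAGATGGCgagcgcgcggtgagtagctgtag
Mrpl57: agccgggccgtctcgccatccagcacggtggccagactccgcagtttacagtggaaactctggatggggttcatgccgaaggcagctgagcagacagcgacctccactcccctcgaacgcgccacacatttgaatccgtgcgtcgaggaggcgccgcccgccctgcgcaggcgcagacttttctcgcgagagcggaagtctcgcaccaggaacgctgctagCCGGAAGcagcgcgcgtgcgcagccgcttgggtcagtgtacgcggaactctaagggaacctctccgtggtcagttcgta
A capital stretch that reads CTTCCGG is the ETS motif on the other strand. In Mrps18b and Mrpl42 the YY1 motif lies in the last part of the sequence, after the start of the gene.

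Of the 62 promoters, 33 (53.2%) held at least 1 of the 3 motifs, beside 16.4% of 18999 protein-coding genes and 21.4% of the 11497 of them on the array. The ETS motif was found in 20 members (32.3%), beside 11.6% of all promoters and 15.5% of those of genes on the array. The YY1 motif was found in 14 (22.6%), beside 4.08% and 4.91%, and the NRF1 motif in 6 (9.68%), beside 2.28% and 3.18%. Matches of these 3 motifs did not overlap each other. With the gene start counted as 0, the median position of a match's first base was 11 for YY1, -24.5 for ETS and -54 for NRF1. The other elements stood closer to the background. The E-box CACGTG was in 11.3% of members, 7.69% of all promoters and 9.39% of those of genes on the array. For the nuclear receptor element AAGGTCA these shares were 4.84%, 4.05% and 3.37%. TATAAA was in 12.9% of members, below the 13.96% of all promoters and above the 8.98% of those of genes on the array. The median content of G and C was 55.8% in members, 60.0% in promoters of genes on the array and 55.3% in all promoters. The median number of CG dinucleotides was 18 in members and 12 in all promoters, and the part of this composition in the motif shares was not tested.

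Most of the called members held none of the 3 motifs. At least 1 of the 3 was found in 4 of 18 called members with a promoter and in 29 of 44 that were not called. The 33 members with a motif had a median difference of -0.30, and the 29 without had a median of -0.43. This split was noticed in the data and was not tested. A match is a run of letters and does not show that a factor binds there. The YY1 motif holds the letters ATG, a start codon, and which of its matches lie where translation starts was not determined.

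**Figure D5:**
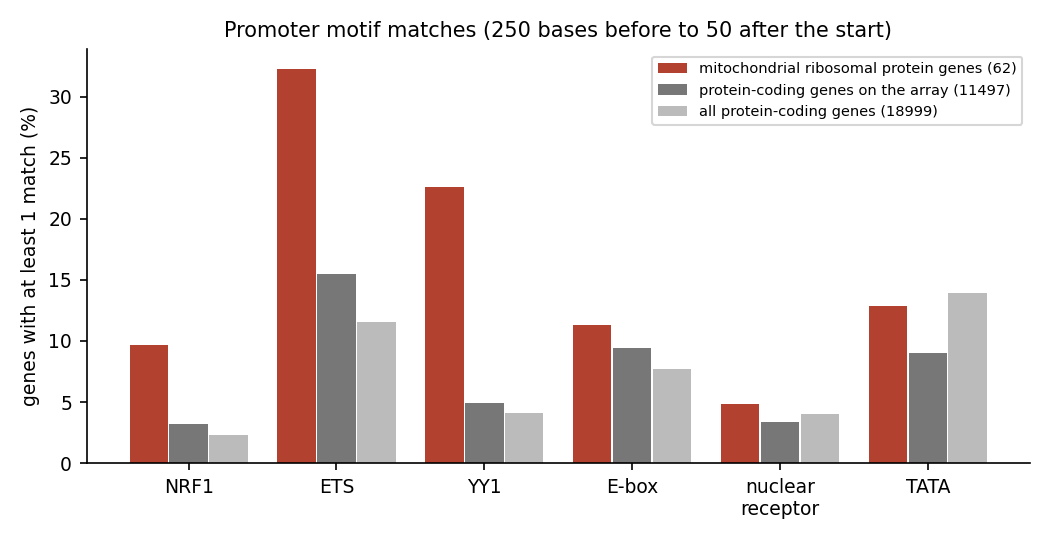
Share of genes with at least 1 match of each of 6 motifs in the promoter window (y axis, % of genes). For each motif the bars run from the 62 members through the 11497 protein-coding genes on the array to all 18999 protein-coding genes. The ETS (32.3%), YY1 (22.6%) and NRF1 (9.68%) bars of the members are above those of both backgrounds.

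Other genes of mitochondrial gene expression were also mostly lower in the mean, with few calls. For this and the following gene lists, the background was 53.99% of all genes lower in the mean. Of brighter genes, 4.73% were called lower and 5.4% called higher. Of 5 measured genes of mitochondrial ribosomal proteins that carry other names, 5 were lower and Chchd1 passed (-0.38, limma adjusted p = 0.0409). Among 10 translation factor genes, 9 were lower in the mean and 0 of the 9 brighter ones were called. The smallest p was that of Gfm2, which splits the ribosome after termination (-0.44, adjusted p = 0.0515). Among 23 genes of ribosome assembly and ribosomal RNA modification, 19 were lower in the mean and 0 of the 15 brighter ones were called. The member with the smallest p, Mettl17, was dim (difference -1.80, SD 1.30 in failing and 0.58 in control hearts; limma adjusted p = 0.119 over all genes).

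Of 18 genes that supply mitochondria with loaded transfer RNA, 17 were lower in the mean and 2 of the 11 brighter ones were called. Most encode aminoacyl-tRNA synthetases, which load transfer RNA with amino acids. Qrsl1, Gatb and Gatc instead encode an enzyme that alters an amino acid already loaded. Kars1 and Gars1 also serve the cytosol, and Kars1 was the gene not lower (0.05). Yars2 fell by 1.03 on the log2 scale (8.53 ± 0.48 in failing and 9.56 ± 0.43 in control hearts; limma adjusted p = 0.0215), and Fars2 had a difference of -0.65 (adjusted p = 0.0216). Of 15 genes of mitochondrial DNA maintenance and transcription, 15 were lower in the mean and 3 of the 14 brighter ones were called. These were the RNA-processing gene Pnpt1 (-0.61, adjusted p = 0.045), the elongation factor gene Tefm (-0.55, adjusted p = 0.0323) and Tfam, which packs mitochondrial DNA (-0.38, adjusted p = 0.046). A list of 5 genes drawn up around insertion of the translation products into the inner membrane had 5 lower in the mean. Of its 4 brighter genes, Timm21 (-0.52, limma adjusted p = 0.0313) and Letm1 (-0.46, adjusted p = 0.0477) were called, and neither encodes an insertase. The insertase genes Oxa1l (-0.28, adjusted p = 0.0898) and Cox18 (-0.37, adjusted p = 0.0674) did not pass.

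Of 11 genes of regulators of mitochondrial biogenesis, 9 were lower in the mean and 1 of the 9 brighter ones was called. This was Ppargc1b, a coactivator that raises the expression of mitochondrial genes, which averaged 8.45 ± 0.24 in failing and 9.21 ± 0.18 in control hearts (-0.76 ± 0.12, SE; limma adjusted p = 0.00988). The genes of the factors whose motifs were searched did not pass: Gabpa had a difference of -0.04 (adjusted p = 0.88), Yy1 one of -0.19 (adjusted p = 0.274), and Nrf1 one of 0.17 on a dim probe set.

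The protein genes of the cytoplasmic ribosome were mostly higher in the mean, unlike the members. Of 47 cytoplasmic ribosomal protein genes 36 had a higher mean in failing hearts, with a median difference of 0.09, and of the 41 brighter ones limma called 0 higher and 1 lower, Rpl3l, a muscle-specific relative (-1.21). Complex I of the respiratory chain, whose mitochondrially encoded subunits this ribosome makes, had 35 of 35 nuclear genes lower with a median of -0.32. Its 4 calls, of 34 brighter genes, were Ndufa11, Ndufs4, Ndufs8 and Ndufv3, all lower. The difference between these sets and the members was not tested.

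Cell type markers and RNA quality were measured beside the members. Of the 9 measured cardiomyocyte markers 8 were lower in the mean (6 after quantile normalization) and 0 were called, and their summed intensity ran from 250228 to 387418 in failing and from 243594 to 396399 in control hearts. Its lowest values were those of control replicate 4 and failing replicates 3 and 6, which were also low in the members, and its highest failing value was that of replicate 5. Failing replicate 1 went the other way. Its mean over all members was below that of control replicate 4 (-0.22 against -0.18), but its cardiomyocyte sum was 338210 against 243594. All 7 fibroblast markers had a higher mean, with Dcn and Pi16 called, and their sum was 46300 to 81081.7 in failing and 35841.9 to 52591.7 in control hearts. Of 7 macrophage markers, 5 of them brighter genes, 6 had a higher mean, with Mrc1, C1qa and Lyz2 called, and the sum was 15919 to 34330.7 in failing and 10822.2 to 16312.4 in control hearts.

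Endothelial markers had Vwf called higher and Emcn called lower (sum 11300.6 to 15486.4 in failing, 9826.9 to 12659.7 in control hearts), and smooth muscle and pericyte markers had Tagln called higher (3804.3 to 9156.9 in failing, 3714.8 to 5709.7 in control hearts). The 4 measured lymphocyte markers were dim, with sums of 87.8 to 189.8 in failing and 86.4 to 458.8 in control hearts, the highest in control replicate 4. The difference between 3' and 5' control probe sets, a sign of RNA breakdown, averaged 0.55 ± 0.07 in failing and 0.56 ± 0.16 in control hearts, and was lowest in control replicate 4 at 0.36. The part of these markers in the members' difference was not tested. With the 3' to 5' difference as a covariate, 19 members were called lower, beside 5.16% of brighter genes.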

How the data were processed

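Per the labels' protocols, total RNA of heart tissue was labelled with biotin and put on 1-colour arrays. The tissue field, heart, was followed where another field mentions a cell line. The authors deposited linear intensity values of 31099 probe sets for 12 arrays, with 0 columns of other samples. Per the submitters' processing notes RMA was used, with no version, whereas the deposited intensities are linear with equal trimmed means, so the summary method is unknown. The genome build is not given in the sources used here.

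Log2 was taken of the intensities as they stood, without offset, and 57 control probe sets were dropped. Of the others 20826 had 1 gene symbol, 436 several and 9780 none. All 76 members matched RefSeq (GRCr8) by gene identifier. Two-sided tests used limma 3.58.1 (R 4.3.3) with group as the only term, within brighter genes and over all genes, with Benjamini-Hochberg adjustment. The limma scripts were tested on simulated data. Alternatives covered normalization, offset, filter, variance model, array weights, probe sets, an RNA quality covariate, the replicate number and each heart left out. Figures were drawn with matplotlib 3.10.9.

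The members, gene lists and tests were chosen with earlier results of these data known. Members named were those called, those with separate groups, the brightest and dimmest of each subunit and 10 named for their known roles. From other lists up to 2 called genes in each direction were named, or the smallest p. Other genes named, which were the members that stood apart or share a place with called ones (Mrpl10, Mrpl14, Mrpl18, Mrpl22, Mrpl23, mrpl24, Mrpl27, Mrpl46, Mrpl52, Mrps6, Mrps26), those at the ends of the correlations (Mrpl35, Mrps5), Tfam, the genes of the motif factors, those called among cytoplasmic ribosomal proteins, complex I and markers, were chosen after their values were seen. The labels give replicate numbers without saying whether they pair the hearts, and the main fit treated the hearts as unpaired.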

Additional observations from a re-analysis of the deposited data

Results flagged for a closer look

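In 4 of 120 groups of 6 hearts, 1 heart stood far from the others by Dixon's ratio, the gap to the nearest heart divided by the range of the group. Chance gives about 1 such group in 20. In 3 of the 4 the heart was control replicate 4. Mrpl1 was 10.70 there and 11.00 in the nearest control heart (ratio 0.65). Mrpl17 was 12.84 there and 13.36 in the nearest control heart (ratio 0.739). Mrps23 was 11.78 there and 12.33 in the nearest control heart (ratio 0.773). The other was Mrpl48 in failing hearts, where replicate 1 was lowest at 9.84 and the nearest was 10.13 (ratio 0.733).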

How the results depend on the processing

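Medians of both subunits kept their direction under all alternatives run, 73 to 75 of 76 genes were lower in failing hearts, and 0 were called higher. No gene named by the rule reversed. Genes near 0 did: with array weights Mrps6 was -0.0080 and Mrpl52 0.026, and over omissions of 1 heart Mrps6 ran from -0.065 to 0.056, Mrpl52 from -0.075 to 0.035, Mrpl14 from -0.165 to 0.017, Gabpa from -0.116 to 0.065 and Nrf1 from -0.011 to 0.29. The count of 21 called lower among brighter genes was 24 after quantile normalization, 30 when fewer dim genes were kept as brighter genes, 21 with an offset of 32, 25 with a mean-variance trend and 19 with the RNA quality covariate. In the same order, 5.02%, 6.96%, 4.82%, 5.19% and 5.16% of brighter genes were called lower. The members' count was 10 after median centring, 13 with the mean of all probe sets, 10 for probe sets in place of genes, and 52 with array weights. Beside these, 2.5%, 2.81%, 1.48% and 12.1% of all brighter genes or probe sets were called lower. An exact rank-sum permutation test, whose smallest p is 0.00216, gave 0. With the replicate number as a block, 3 members were called, beside 1.9% of brighter genes called lower. Correlations of same-numbered hearts ran from -0.12 to 0.26, and 2 failing and 1 control heart correlated best with their own number. Leaving out each heart gave 0 to 56 calls among brighter genes and 0 to 25 over all genes. Beside these, 0.661% to 13.6% of brighter genes and 0 to 382 of all 14217 genes were called lower. Over all genes the members' count, 0 in the fit as reported, was 16 with the trend and 20 with array weights. In these fits 217 and 324 of all 14217 genes were called lower, against 0 in the fit as reported. Without control replicate 4 and failing replicate 5 together, chosen after seeing the data, the members' count was 64 among brighter genes and 45 over all genes. Beside these, 16.9% of brighter genes and 737 of all 14217 genes were called lower. Why these counts moved was not tested.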
